A study of Mus musculus with 8 samples.

Results

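The claudins described here are 10 genes of the tight junction whose transcripts were measured in mouse colon, found by exact gene symbol in the authors' table of 18262 genes. All 10 were present, and all 10 passed the filter on low values (a length-scaled transcript abundance, TPM, of 1 or more in 4 or more of 8 libraries). RNA sequencing was done on colon of wild-type mice in which colitis had been raised with dextran sulfate sodium (DSS), which injures the colonic lining. The DSS group had 4 libraries, and the DSS + GAA group had 4 libraries and was given, besides DSS, the Ganoderma triterpenoid ganoderic acid A (GAA) at 20 mg/kg. The treatment labels of the 4 DSS + GAA libraries read 20, 21, 22 and 23 mg/kg, while their titles all carry 20, so they were treated as 1 group. Both groups had received DSS, so the levels below are levels in colitis, and colon without colitis was not analysed here. Strain, sex, age, DSS dose and the stretch of colon taken are not given in the sources used here.

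Claudins are small membrane proteins with 4 transmembrane segments that line up between neighbouring epithelial cells and form the strands of the tight junction. Some tighten the seal, while others form channels in the strand that let small ions and water pass between cells. In gut, the channel formers Cldn2 and Cldn15 are known from crypts and small intestine, and barrier claudins such as Cldn4 from the surface of the colonic epithelium. Sealing claudins were taken as Cldn1, Cldn3, Cldn4, Cldn5 and Cldn8, and pore-forming claudins as Cldn2 and Cldn15. Cldn7, Cldn12 and Cldn23 were left unclassed, since their part in barrier and permeability is less settled.

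Cldn3 was chosen for a look at sequence as the single member to pass the test used below (limma). Cldn2 was chosen since its level varied widely between DSS + GAA libraries, and Cldn4 since among those libraries it was low where Cldn2 was high. The stretches just before the transcription start are shown for these 3 members. Each is 250 bases on the strand of its gene (RefSeq, GRCm38.p6), at chr5:134985964-134986213 on the plus strand for Cldn3, chrX:139800558-139800807 on the plus strand for Cldn2 and chr5:134946935-134947184 on the minus strand for Cldn4.
Cldn3: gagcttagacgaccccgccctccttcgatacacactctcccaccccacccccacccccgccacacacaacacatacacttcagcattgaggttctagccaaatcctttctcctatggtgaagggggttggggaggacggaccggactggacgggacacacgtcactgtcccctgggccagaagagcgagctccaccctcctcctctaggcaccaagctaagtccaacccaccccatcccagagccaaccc
Cldn2: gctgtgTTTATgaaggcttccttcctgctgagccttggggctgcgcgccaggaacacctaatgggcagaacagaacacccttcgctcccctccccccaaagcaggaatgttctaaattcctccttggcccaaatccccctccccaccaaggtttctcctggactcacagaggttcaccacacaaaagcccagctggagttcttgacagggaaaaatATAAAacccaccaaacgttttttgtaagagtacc
Cldn4: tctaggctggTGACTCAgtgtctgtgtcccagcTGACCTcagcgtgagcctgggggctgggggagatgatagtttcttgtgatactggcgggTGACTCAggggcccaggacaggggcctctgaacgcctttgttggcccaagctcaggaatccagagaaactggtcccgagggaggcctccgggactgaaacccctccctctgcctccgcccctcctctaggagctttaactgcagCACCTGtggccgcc
Capitals mark matches, on either strand, to 6 letter patterns: AGGTCA (bound by ROR receptors, the family of the series title's RORA), GTTAAT (HNF1), TTTAT (a CDX core), TTCNNNGAA (STAT), TGANTCA (AP-1) and CAGGTG (an E-box bound by Snail). Cldn4 held 2 AP-1 matches, 1 ROR match and 1 Snail E-box. Cldn2 held 2 matches to the CDX core, the second of them within TATAAA, which are also the letters of a TATA box. Cldn3 held 0 matches. The same stretch of Cldn15 held 1 AP-1 and 1 CDX match. No matches in these 4 stretches shared a base. The bases just after the RefSeq start of Cldn2 were not found in its annotated (GENCODE) transcripts, whereas those of Cldn3, Cldn4 and Cldn15 were. Among 32536 different stretches of the same length, 6.73% held an AP-1 match, 6.47% an HNF1 match, 7.04% a STAT match, 14% a ROR match, 17.3% a Snail E-box and 37.2% a CDX core. A match is a match of letters, and factor binding was not measured. RefSeq stretches were at hand for 8 of the 10 members, and none for Cldn8 and Cldn23.

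On TPM as deposited, a single sealing claudin rose in DSS + GAA colon and no other member passed the limma test. Cldn3 was higher by 0.57 on the log2(TPM + 1) scale, whereas the other 4 sealing claudins had negative fold changes (-1.02 to -0.32) that did not pass. These 4 were positive when libraries were scaled to endothelial markers. When scaled to epithelial markers the 4 passed as lower, beside 72.9% of all tested genes lower. On that epithelial scale Cldn3 stood at 0.05 and did not pass. Both pore-forming claudins had fold changes near 1 on TPM as deposited (1.02 for Cldn2 and 1.01 for Cldn15), but neither passed limma, and their DSS + GAA libraries spread widely. The authors' deposited table, whose test is not stated, differs. It has Cldn2, Cldn15, Cldn23 and Cldn3 higher at a false discovery rate under 0.05, beside 10.3% of all its genes. In the limma fit on TPM as deposited, 1 of 10 members was thus higher and 0 were lower (adjusted p under 0.05). Of all 14217 tested genes 5.96% were higher, 28.2% lower and 34.1% called in either direction. At an unadjusted limma p under 0.05, 3 members were higher (Cldn3, Cldn7 and Cldn23) and 2 lower (Cldn4 and Cldn5). The share of all tested genes under that unadjusted threshold was not counted, so these 2 counts are not a result about claudins. The median fold change of the 10 was 0.06, beside -0.25 for all tested genes. Leaving out DSS + GAA replicate 1 gave 3 higher and 3 lower members (9.05% and 31.4% of all genes). Leaving out replicate 2 of that group gave 0 of either (2.95% and 17.2%), and leaving out its replicate 5 gave 2 higher and 0 lower (5.02% and 21.3%).

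**Figure D1:**
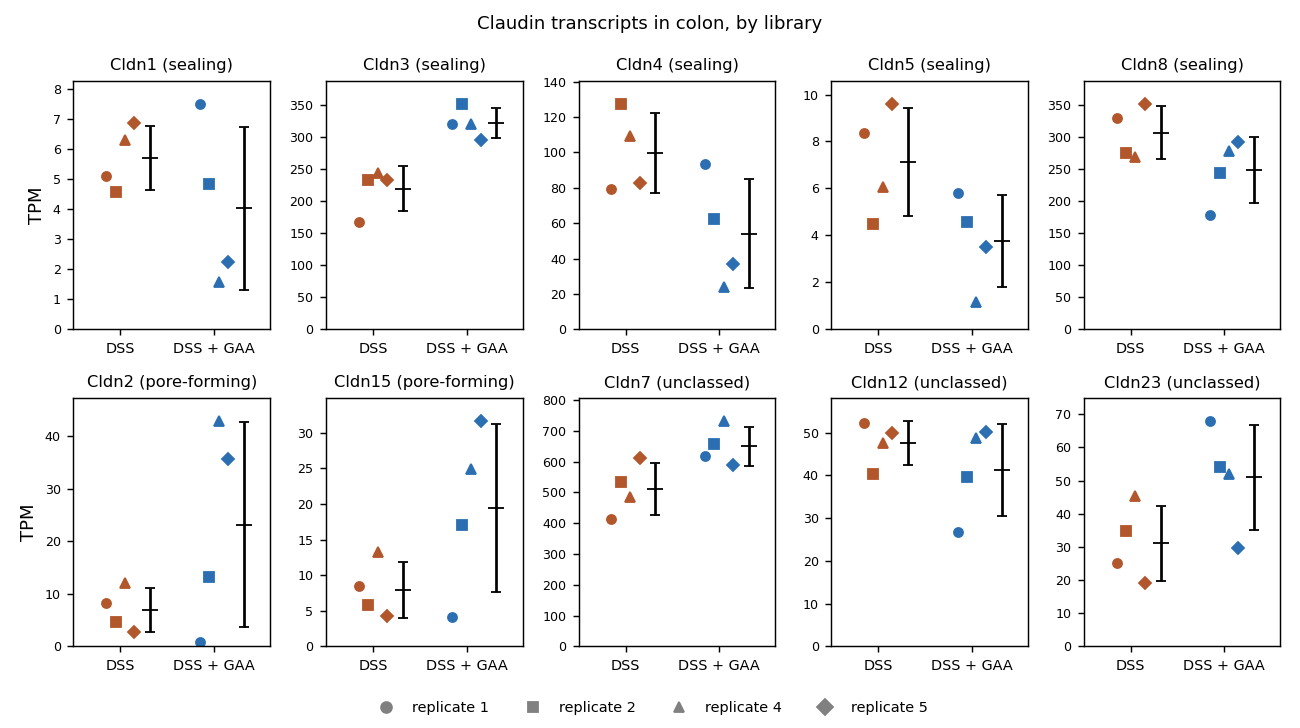
TPM of 10 claudins (vertical axes, each starting at 0) in 4 DSS and 4 DSS + GAA libraries; symbols are libraries, and black bars are mean and SD of each group. The 4 DSS + GAA libraries lie above every DSS library for Cldn3, while Cldn2 runs from 0.87 to 42.9 TPM within DSS + GAA.

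By level, which TPM allows since it is per transcript length, 3 claudins made up most of the family transcripts. Cldn7, Cldn8 and Cldn3 together held 80.6% to 87.2% of the summed TPM of the 10 members in every library. In the DSS group the order of mean TPM was Cldn7 (511), Cldn8 (306), Cldn3 (219), Cldn4 (99.7), Cldn12 (47.6), Cldn23 (31.1), Cldn15 (7.92), Cldn5 (7.13), Cldn2 (6.92) and Cldn1 (5.70). The last 4 overlapped one another between libraries, and Cldn12 and Cldn23 overlapped as well. In DSS + GAA, Cldn3 (322) stood above Cldn8 (248), Cldn23 (51.0) next to Cldn4 (54.1) and Cldn12 (41.3) with overlapping libraries, and Cldn2 (23.2) and Cldn15 (19.4) above Cldn1 (4.03) and Cldn5 (3.75) by mean but not in every library. A further 12 claudin genes were listed in the table. Cldn14 was the only one of them to pass the filter (log2 fold change -0.28, limma adjusted p = 0.357), and the 12 together summed to 2.59 to 7.57 TPM per library.

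Cldn3 is a broadly expressed sealing claudin of gut epithelium (chromosome 5, 134986214 to 134987472, plus strand, a single exon). Its level was 167, 233, 244 and 233 TPM in DSS replicates 1, 2, 4 and 5 and 320, 353, 321 and 296 TPM in DSS + GAA replicates 1, 2, 4 and 5. All 4 DSS + GAA libraries lay above all 4 DSS libraries, and DSS replicate 1 was the lowest of the 8. Groups did not overlap for 32.9% of all tested genes. The means were 219 ± 35.1 and 322 ± 23.3 TPM (SD, n = 4 per group), with a log2 fold change of 0.57 ± 0.15 (SE; limma adjusted p = 0.0180; two-sided exact permutation p = 0.0286, the smallest that 4 against 4 libraries allow). The call was lost without DSS + GAA replicate 2 (limma adjusted p = 0.0590). Epithelial marker genes moved with it: all 10 listed markers (Epcam, Cdh1, Vil1 and others) had positive fold changes, 4 of the 10 rose, and their summed TPM was 13347 to 16162 in DSS and 18686 to 22541 in DSS + GAA. These 4 were Vil1, Cdhr5, Krt8 and Cdh1. With DSS replicate 1 left out 1 rose (2.59% of all tested genes higher), and with DSS + GAA replicate 2 or 4 left out 2 did (2.95% and 3.85%). Among them Vil1, which encodes an actin-bundling protein of microvilli, went from 429 ± 113 to 992 ± 151 TPM. With each library scaled to the mean log2 level of these markers, the log2 fold change of Cldn3 was 0.05 ± 0.15 (limma adjusted p = 0.784). In bulk tissue a change in the number of epithelial cells and a change in RNA per cell cannot be told apart. Exons of Wbscr25, an antisense transcript, overlap those of Cldn3, and without strand in the protocol their reads cannot be told apart; exons of the other 9 members overlap no other annotated gene.

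Cldn4 lies 39279 bases from Cldn3, on the opposite strand (chromosome 5, 134945119 to 134946934, minus strand), and is a sealing claudin of surface epithelium. It stood at 79.6, 128, 109 and 82.5 TPM in DSS replicates 1, 2, 4 and 5 and at 93.7, 62.1, 24.0 and 36.6 TPM in DSS + GAA replicates 1, 2, 4 and 5. DSS + GAA replicates 2, 4 and 5 lay below every DSS library, and replicate 1 lay within their range. The means were 99.7 ± 22.9 and 54.1 ± 30.8 TPM, and the log2 fold change of -1.02 ± 0.37 did not pass (limma adjusted p = 0.0608; two-sided exact permutation p = 0.0857). Without DSS + GAA replicate 1 it passed, at -1.34 (limma adjusted p = 0.00765).

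Cldn8, a claudin of distal colon and kidney that limits back-leak of sodium (chromosome 16, 88560828 to 88563183, minus strand), was second in level in DSS colon. Its TPM was 330, 275, 268 and 351 in DSS replicates 1, 2, 4 and 5 and 177, 243, 278 and 292 in DSS + GAA replicates 1, 2, 4 and 5. The groups overlapped, with DSS + GAA replicate 1 lowest (log2 fold change -0.32 ± 0.18, limma adjusted p = 0.191, and -0.17 when that library was dropped). In every DSS library Cldn8 stood above Cldn3, and in every DSS + GAA library Cldn3 stood above Cldn8. In DSS + GAA replicate 5 they were close, at 296 TPM for Cldn3 and 292 TPM for Cldn8. This comparison was chosen after the values were seen.

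Cldn1, the sealing claudin best known from skin (chromosome 16, 26356642 to 26371841, minus strand), was low throughout. It ranged from 4.56 to 6.87 TPM in the DSS libraries and reached 7.50, 4.82, 1.56 and 2.23 TPM in DSS + GAA replicates 1, 2, 4 and 5. DSS + GAA replicate 1 was the highest of the 8 and replicates 4 and 5 the lowest (log2 fold change -0.56 ± 0.36, limma adjusted p = 0.244). Without replicate 1 of DSS + GAA it passed, at -0.87 (limma adjusted p = 0.0330), whereas dropping replicate 4 gave -0.29 (limma adjusted p = 0.511). Squamous epithelium also makes Cldn1, and 10 listed genes of it summed to 6.91 to 10.7 TPM (DSS) or 3.64 to 5.91 TPM (DSS + GAA). Of these 7 did not pass the filter, among them the basal keratin genes Krt5 and Krt14, below 1 TPM in every library. Of the 3 tested, Dsg3, a desmosomal cadherin, fell from 3.06 ± 0.78 to 0.859 ± 0.535 TPM (log2 fold change -1.15, limma adjusted p = 0.00822), and the keratin genes Krt10 (2.56 ± 0.53 and 2.51 ± 1.00 TPM) and Krt13 (2.04 ± 1.40 and 1.02 ± 0.56 TPM) did not pass. Their part in the Cldn1 values was not tested.

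Cldn5 is the main claudin of blood vessel endothelium and is also found in gut epithelium (chromosome 16, 18776847 to 18778262, plus strand). It stood at 8.38, 4.47, 6.07 and 9.61 TPM in DSS replicates 1, 2, 4 and 5 and at 5.79, 4.58, 1.15 and 3.49 TPM in DSS + GAA replicates 1, 2, 4 and 5. DSS + GAA replicates 4 and 5 lay below all DSS libraries, and the other two lay within their range (log2 fold change -0.85 ± 0.36, limma adjusted p = 0.0971; two-sided exact permutation p = 0.0857). Leaving out replicate 1 of DSS + GAA made it pass (-1.06, limma adjusted p = 0.0384), whereas dropping replicate 4 gave -0.51 (limma adjusted p = 0.180). Of 12 endothelial markers 10 fell and 0 rose, with a median of -1.14. Emcn and Robo4 had the smallest p, and Pecam1, the most abundant, went from 47.4 ± 11.9 to 22.3 ± 12.2 TPM. The summed TPM of the 12 was 155 to 262 in DSS and 40.4 to 157 in DSS + GAA. With DSS replicate 1 left out 1 endothelial marker fell, where 12% of all tested genes were called lower, beside 28.2% with all libraries. With DSS replicate 4, DSS + GAA replicate 4 or DSS + GAA replicate 5 left out 4 did, and with replicate 2 of either group left out 5 did. In those settings 17.2% to 23.7% of all tested genes were called lower. Scaled to the mean log2 level of the endothelial markers, Cldn5 had a log2 fold change of 0.30 ± 0.36 (limma adjusted p = 0.462).

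Cldn2 forms pores for small cations and water and is the claudin most often linked to leaky inflamed gut (chromosome X, 139800828 to 139811386, plus strand). Its TPM was 8.34, 4.68, 12.0 and 2.66 in DSS replicates 1, 2, 4 and 5. In DSS + GAA it was 0.87 in replicate 1, 13.2 in replicate 2, 42.9 in replicate 4 and 35.6 in replicate 5. DSS + GAA therefore held both the lowest of the 8 libraries and the 3 highest. The means were 6.92 ± 4.12 and 23.2 ± 19.5 TPM, and the log2 fold change was 1.02 ± 0.91 (limma adjusted p = 0.407; two-sided exact permutation p = 0.371). Without DSS + GAA replicate 1 it was 2.00 ± 0.49 (limma adjusted p = 0.0119). Dropping replicate 4 or 5 of that group moved it the other way, to 0.48 and 0.57 (limma adjusted p = 0.709 and 0.665).

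Cldn15, the sodium pore of small intestine (chromosome 5, 136966616 to 136975858, plus strand), followed nearly the same order of libraries. It stood at 8.42, 5.76, 13.2 and 4.29 TPM in DSS replicates 1, 2, 4 and 5 and at 4.16, 17.0, 24.9 and 31.7 TPM in DSS + GAA replicates 1, 2, 4 and 5. Within DSS the 2 genes ranked the libraries alike (replicate 4 highest, then 1, 2 and 5), and within DSS + GAA they differed only in which of replicates 4 and 5 was first. The log2 fold change of Cldn15 was 1.01 ± 0.55 (limma adjusted p = 0.180), and without DSS + GAA replicate 1 it was 1.58 ± 0.34 (limma adjusted p = 0.00647). The sources used here do not say which test gave the authors' deposited table, though edgeR is among the tools they name. In that table Cldn2 (log2 fold change 1.74, false discovery rate 1.68e-09), Cldn15 (1.29, 4.02e-06), Cldn23 (0.72, 0.00470) and Cldn3 (0.56, 0.0222) are below a false discovery rate of 0.05. That table thus calls 4 of the 10 members higher and 0 lower, beside 10.3% and 16.2% of all its genes.

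**Figure D2:**
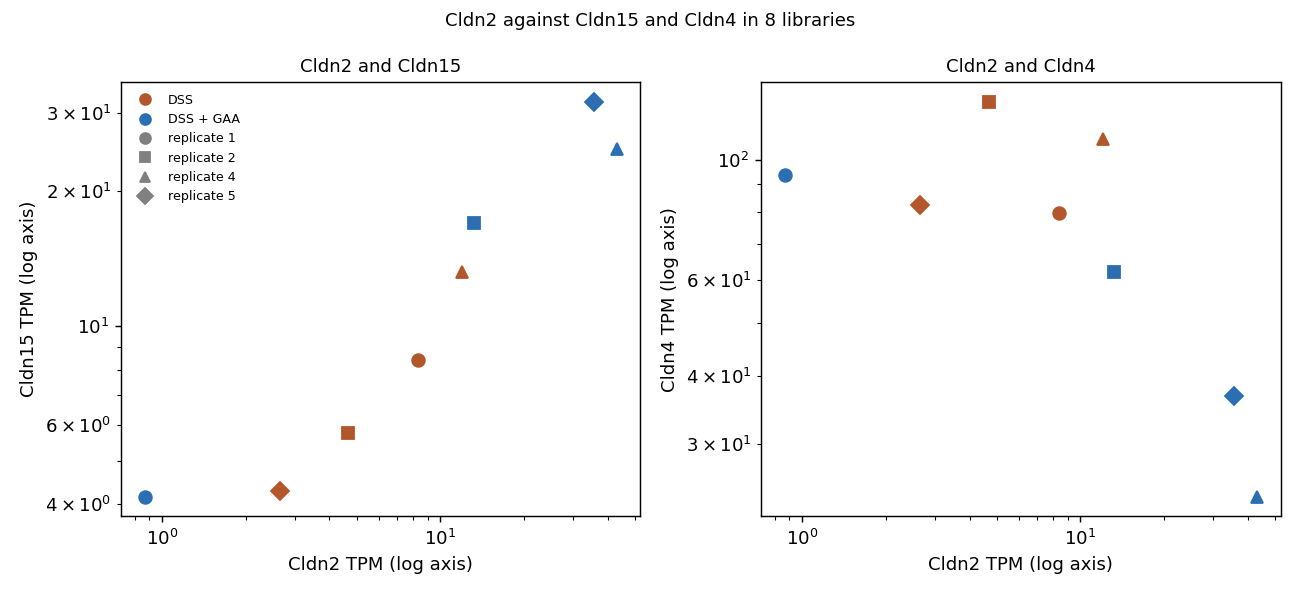
TPM of Cldn2 (horizontal, log axis) against Cldn15 (left) and Cldn4 (right, both log axes) in 8 libraries; colour gives the group and symbol the replicate. Cldn15 is high where Cldn2 is high, and the 2 libraries with most Cldn2 (42.9 and 35.6 TPM) have least Cldn4 (24.0 and 36.6 TPM).

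Summed levels of surface colonocyte genes and of genes of crypt base and dividing cells also differed between the DSS + GAA libraries that stood apart for Cldn2 and Cldn4. The summed TPM of 10 surface colonocyte genes (Krt20, Slc26a3, Aqp8 and others) was 20097 in DSS + GAA replicate 1, 15308 in replicate 2, 10637 in replicate 4 and 11029 in replicate 5, and 6415 to 11861 in DSS. That of 10 genes of crypt base and dividing cells was 43.1, 62.1, 127 and 110 in the same DSS + GAA libraries and 87.0 to 176 in DSS. By these sums DSS + GAA replicate 1, lowest of the 8 in Cldn2, was highest in the first list and lowest in the second. This was not particular to these lists. Replicate 1 was also highest of the DSS + GAA libraries in summed goblet cell (25333 TPM), smooth muscle (2339), leukocyte (170) and endothelial genes (157). Within DSS, replicate 2 had the highest crypt sum (176) with Cldn2 at 4.68 TPM, while replicate 5 was lowest in both. Single genes did not all follow the sums. In DSS + GAA replicates 1, 2, 4 and 5 Krt20 was 4544, 3392, 2399 and 1772 TPM, whereas Slc26a3 was 558, 705, 681 and 1267 TPM. Mki67 was 10.4, 18.2, 42.9 and 37.7 TPM in those libraries. Axin2 was 1.93, 1.58, 1.69 and 1.15 TPM, highest of them in replicate 1. The part of this mix in the claudin values was not tested. Of the surface genes 3 rose (Aqp8, Cdkn1a and Slc26a3), and 1 to 4 did when single libraries were left out. The fewest rose when DSS replicates 1 or 4 or those of DSS + GAA numbered 2 or 4 were dropped. In those settings 2.59% to 5.21% of all tested genes were called higher, beside 5.96% with all libraries. Under trimmed mean scaling and under median centring 6 surface genes rose, scaled to endothelial markers 9 did, and under quantile normalization or scaled to epithelial markers 1 did. Of 7 tested crypt and cycling genes 2 fell (Smoc2 and Znrf3), and the most abundant, Mki67, did not pass (log2 fold change -0.27); Lgr5, Olfm4 and Ascl2 were below the filter.

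Cldn15 is also known from mesothelium, and both pore formers from small intestine, so markers of both were read. Mesothelial genes were lower in DSS + GAA, at 17.4 to 40.9 summed TPM in DSS and 1.99 to 3.49 in DSS + GAA, with Msln and Upk1b, the 2 tested, both falling. Both passed the filter through the DSS libraries, where they were high. In DSS + GAA they were near the filter, at 1.30 ± 0.32 TPM for Msln and 1.09 ± 0.38 TPM for Upk1b. Among small-intestinal enterocyte genes the brush border enzyme genes Sis and Lct stayed at or below 0.108 TPM in every library. Of the 6 tested, 3 rose (Fabp6, Apob and Fabp2) and 1 fell (Slc10a2, the ileal bile acid transporter, from 135 ± 57.7 to 24.6 ± 10.5 TPM). The summed level of the 10 was 151 to 277 TPM (DSS) or 314 to 529 TPM (DSS + GAA); its part in the claudin values was not tested. Goblet cell genes rose in 3 of 8 cases (Agr2, Atoh1 and Fcgbp), while Zg16, the most abundant, did not pass (log2 fold change 0.37). Of 6 leukocyte genes Cd3e of T cells rose (1.72), Itgam of myeloid cells fell (-1.83), and Ptprc, the most abundant, did not pass (0.22). Of 5 smooth muscle genes 0 passed, and 0 had an unadjusted limma p under 0.05 (log2 fold changes of -0.59 for Myh11 and -0.61 for Acta2, limma adjusted p = 0.193 and 0.198).

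Of the unclassed members, Cldn7, which lines the lateral membrane of gut epithelial cells as well as the junction, was the most abundant claudin in every library (chromosome 11, 69964779 to 69967885, plus strand). It stood at 413, 534, 486 and 613 TPM in DSS replicates 1, 2, 4 and 5 and at 619, 656, 732 and 587 TPM in DSS + GAA replicates 1, 2, 4 and 5. The groups overlapped through DSS replicate 5 and DSS + GAA replicate 5 (log2 fold change 0.35 ± 0.15, limma adjusted p = 0.0974). Cldn23, a claudin of the upper epithelium (chromosome 8, 35824712 to 35826559, minus strand), stood at 25.2, 34.7, 45.2 and 19.1 TPM in DSS replicates 1, 2, 4 and 5 and at 68.0, 54.1, 52.1 and 29.8 TPM in DSS + GAA replicates 1, 2, 4 and 5. DSS + GAA replicates 1, 2 and 4 lay above all DSS libraries and replicate 5 within them (log2 fold change 0.71 ± 0.30, limma adjusted p = 0.0978). Leaving out replicate 5 of DSS + GAA made it pass (0.94, limma adjusted p = 0.0358). Cldn12, which lacks the C-terminal motif by which most claudins bind their scaffolds (chromosome 5, 5489537 to 5514958, minus strand), ranged from 40.4 to 52.4 TPM in DSS and from 26.7 to 50.2 TPM in DSS + GAA (log2 fold change -0.23 ± 0.20, limma adjusted p = 0.379). DSS + GAA replicate 1 was its lowest library (-0.04 when it was dropped), and the sign turned under trimmed mean scaling (0.05), median centring (0.07) and scaling to endothelial markers (0.92).

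Ratios within a library do not depend on a scaling factor per library, so the balance of sealing against pore-forming claudins was read from them. Cldn2 stood at 3.23% to 10.99% of Cldn4 in DSS, and at 0.93%, 21.2%, 179% and 97.2% in DSS + GAA replicates 1, 2, 4 and 5. Against Cldn3 it was 1.14% to 4.99% in DSS and 0.27% to 13.4% in DSS + GAA. Cldn15 was 1.84% to 5.42% of Cldn3 in DSS and 1.30% to 10.7% in DSS + GAA. In each ratio the DSS + GAA libraries lay on both sides of the DSS range. The mean log2 ratio of Cldn2 to Cldn4 was -4.04 ± 0.95 in DSS and -2.05 ± 3.39 in DSS + GAA (SD), a difference of 1.99 that was 3.56 without DSS + GAA replicate 1, 1.03 without its replicate 4 and 1.32 without its replicate 5. The SD within DSS + GAA was larger than this difference. That of Cldn2 to Cldn3 was higher by 0.38 with all libraries, by 1.62 without DSS + GAA replicate 1, and turned to -0.04 without DSS replicate 5. It also turned without DSS + GAA replicate 4 (-0.25) or 5 (-0.20). That of Cldn15 to Cldn3 was higher by 0.52, by 1.14 without DSS + GAA replicate 1, by 0.28 and 0.13 without DSS + GAA replicates 4 and 5, and by 0.23 without DSS replicate 5. Cldn2 and Cldn15 together held 0.51% to 2.04% of the family total in DSS, and 0.38%, 2.09%, 4.44% and 4.93% in DSS + GAA replicates 1, 2, 4 and 5.

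Within the sealing group, a pair of ratios chosen after their values were seen separated the groups. Cldn3 over Cldn8 was 0.51 to 0.91 in DSS and 1.01 to 1.80 in DSS + GAA, and Cldn3 over Cldn4 was 1.83 to 2.82 in DSS and 3.42 to 13.4 in DSS + GAA. For both, the groups did not overlap. Both ratios share Cldn3, whose groups did not overlap by itself, as was so for 32.9% of all tested genes. How many other ratios separate the groups was not counted, so this is a description only.

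**Figure D3:**
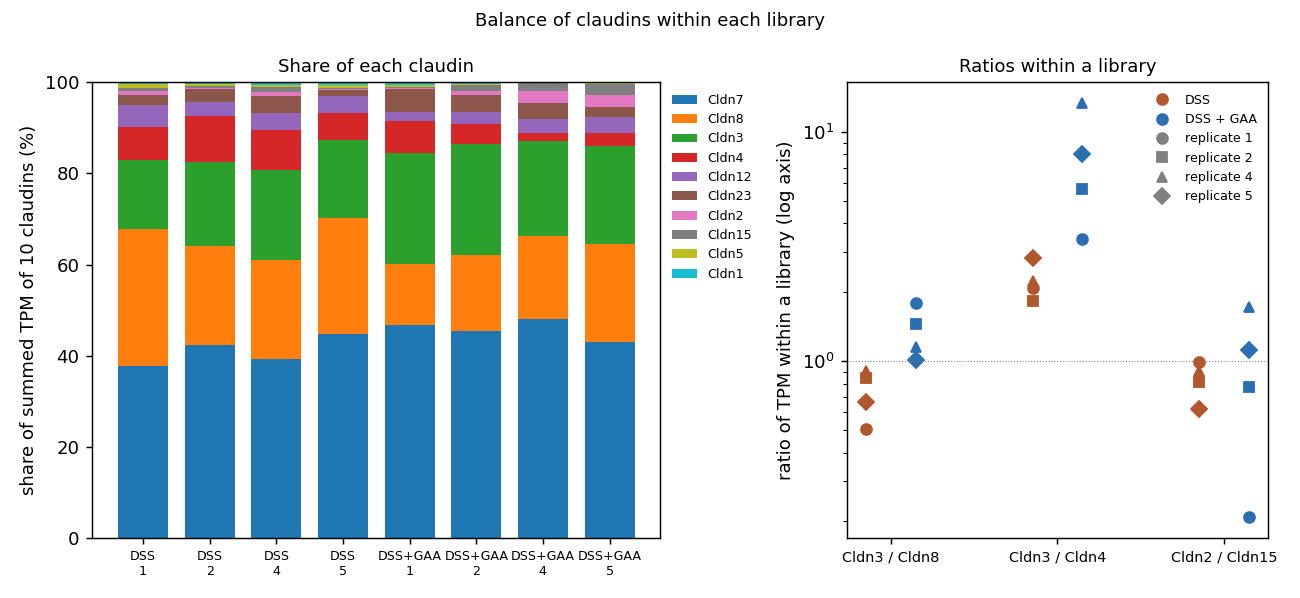
Left: share (percent) of each of 10 claudins in their summed TPM, by library. Right: TPM ratios within a library on a log axis, coloured by group, with symbols for replicates. Cldn3 over Cldn8, a ratio chosen after its values were seen, lies below 1 in the 4 DSS libraries. It lies at 1.01 or above in the 4 DSS + GAA libraries.

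Other genes of the tight junction were read from a list of 24, of which 23 were tested. Of these 9 rose, 4 fell and 10 did not pass, and the median log2 fold change was 0.36 beside -0.25 for all genes. Ildr1, which encodes angulin-2 of the contacts where 3 cells meet, went from 195 ± 14.2 to 280 ± 9.36 TPM (log2 fold change 0.53 ± 0.11, limma adjusted p = 0.00872). The others that rose were Lsr (angulin-1), Marveld3 and Ocln (4-pass proteins of the strand), Tjp3, Cgn and Patj (cytoplasmic scaffolds), Crb3 (a polarity protein) and Cxadr (an adhesion receptor). The 4 that fell were Mpdz, a many-PDZ scaffold (15.2 ± 2.35 to 5.63 ± 2.74 TPM), Cgnl1, and the adhesion molecules Jam2 and Jam3, which endothelium also makes. F11r, the most abundant (243 ± 16.7 and 316 ± 53.5 TPM), did not pass, nor did Tjp1 (log2 fold change 0.11), the scaffold ZO-1. With DSS replicate 1 left out 2 rose and 2 fell, beside 2.59% of all tested genes higher and 12% lower. With replicate 2 of either group or DSS + GAA replicate 4 left out 4 rose, beside 2.95% to 3.85% of all tested genes. With DSS + GAA replicate 5 left out 5 rose (5.02% of all genes). Under trimmed mean scaling 13 rose and 2 fell, under quantile normalization 12 and 1, under median centring 13 and 1, and scaled to epithelial markers 0 and 8.

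**Figure D4:**
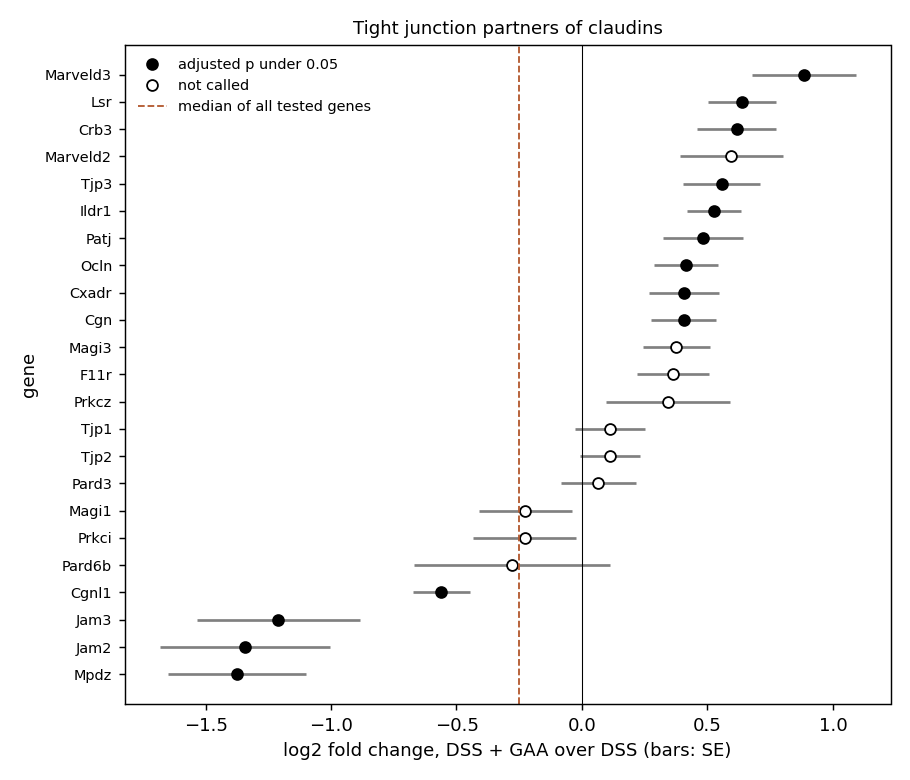
Log2 fold change (DSS + GAA over DSS, bars SE) of 23 tight junction genes other than claudins; filled points passed at an adjusted p under 0.05, and the dashed line is the median of all tested genes (-0.25). Of the filled points 9 lie to the right of 0 and 4 to the left.

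Genes known to set claudin expression or junction tension were mixed. Of 16 transcription regulators 2 rose and 3 fell. Vdr, the vitamin D receptor, which is known to act on Cldn2, went from 50.6 ± 8.99 to 127 ± 41.0 TPM and Hnf4a, an epithelial nuclear receptor, from 162 ± 50.4 to 315 ± 37.9 TPM. Zeb1 and Snai1, repressors of junction genes, fell (log2 fold changes -1.37 and -1.32, limma adjusted p = 0.0131 and 0.0241), as did Stat6 (-0.34, limma adjusted p = 0.0478). Elf3, the most abundant, did not pass (0.27), nor did Cdx2 (-0.67, limma adjusted p = 0.120). Those that rose numbered 4 without DSS + GAA replicate 1, and 1 fell when any of DSS replicates 1, 2 and 4 or of DSS + GAA replicates 2 and 4 was left out. Under trimmed mean scaling, quantile normalization and median centring 2 regulators rose and 1 fell. Scaled to epithelial markers 2 rose and 7 fell, and scaled to endothelial markers 8 rose and 0 fell. Among 9 tested cytokines that act on claudins 5 fell (Il10, Il6, Il1b, Il17a and Il22) and 1 rose (Ifng). Without DSS replicate 1, 3 fell, and without DSS + GAA replicate 5, 2 rose. Of these genes Il17a passed the filter on low values only through the DSS libraries, the group where it was high. Its level was 1.92 ± 1.01 TPM in DSS and 0.39 ± 0.27 TPM in DSS + GAA, below 1 TPM in every library of the latter. Il10, an anti-inflammatory cytokine, went from 27.8 ± 20.9 to 1.25 ± 0.55 TPM, and Il6 and Il1b, inflammatory cytokines, from 61.7 ± 44.1 to 1.91 ± 1.48 and from 262 ± 102 to 46.3 ± 23.0 TPM. Ifng, a cytokine of T and NK cells, went from 1.21 ± 0.31 to 11.5 ± 6.20 TPM. Tnf did not pass (log2 fold change 0.44, limma adjusted p = 0.223). Cytokine genes that fell numbered 4 under trimmed mean scaling, 3 under quantile normalization, median centring or scaling to endothelial markers (where 2 rose), and 7 scaled to epithelial markers. Of 12 kinases, myosins and proteases 4 rose and 3 fell. Those that rose were Myh14, a non-muscle myosin (114 ± 16.5 to 201 ± 23.0 TPM), the membrane protease St14 and its inhibitors Spint1 and Spint2. Those that fell were Wnk1, Rock2 and Mylk, the myosin light chain kinase that smooth muscle also makes (198 ± 25.7 to 115 ± 43.4 TPM); 1 fell when DSS replicates 1 or 4, or DSS + GAA replicates 4 or 5, were left out. None of the 12 was called lower under trimmed mean scaling (4 higher), median centring (5 higher) or scaling to endothelial markers (6 higher), and 1 was under quantile normalization (4 higher). Scaled to epithelial markers 0 rose and 6 fell. Over all tested genes, 12% to 23.7% were called lower with any of DSS replicates 1, 2 and 4 left out. For DSS + GAA replicates 2, 4 and 5 it was 17.2% to 21.3%, beside 28.2% with all libraries.

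**Figure D5:**
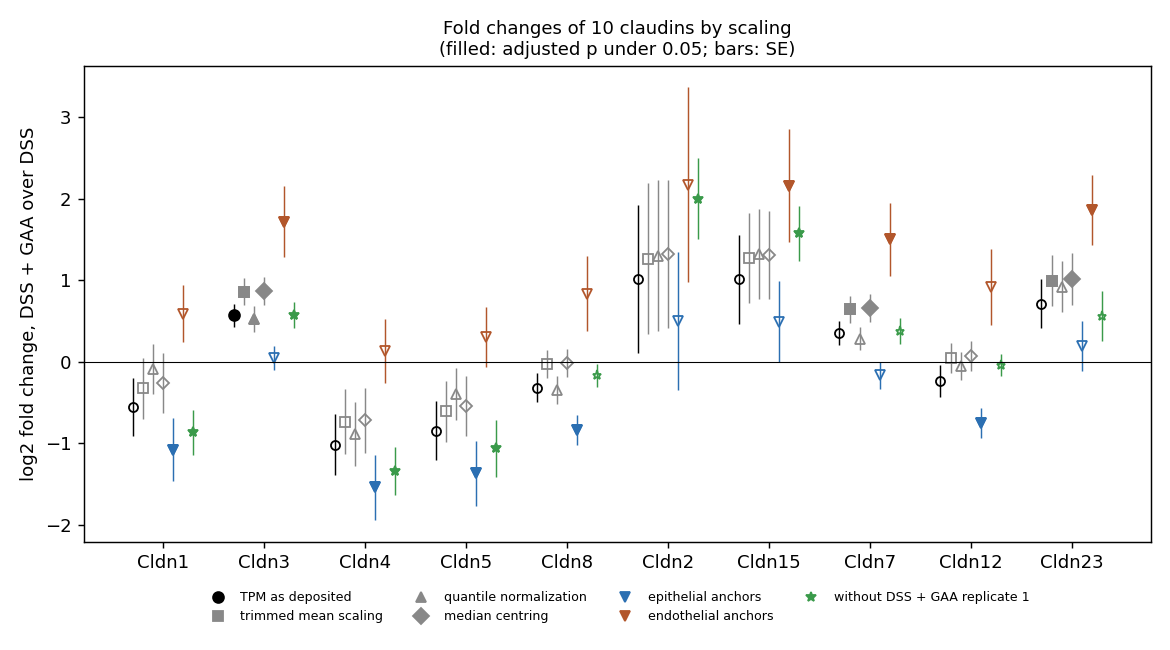
Log2 fold change (DSS + GAA over DSS, bars SE) of each claudin on TPM as deposited, under 3 other scalings, scaled to epithelial or endothelial markers, and without DSS + GAA replicate 1; filled symbols passed at an adjusted p under 0.05. Cldn3 is filled in 6 of the 7 settings and lies at 0.05 when scaled to epithelial markers.

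Fold changes of the claudins depended on the scaling between libraries. Over the tested genes the median change (log2) was -0.25 on TPM as deposited, 0.01 under trimmed mean scaling, 0.02 under quantile normalization, 0.05 under median centring, -0.77 scaled to epithelial markers and 0.90 scaled to endothelial markers. Under trimmed mean scaling and under median centring Cldn3, Cldn7 and Cldn23 passed as higher and 0 members as lower, beside 13.9% and 15.2% of all genes higher and 11.6% and 9.2% lower. Under quantile normalization Cldn3 alone of the 10 passed, as higher (11.8% of all genes higher and 11.3% lower), and members moved in both directions, with Cldn1 at -0.09, Cldn5 at -0.40 and Cldn23 at 0.92 above, and Cldn7 at 0.28 and Cldn8 at -0.35 below, their values on TPM as deposited. Scaled to epithelial markers, 5 members passed as lower (Cldn1, Cldn4, Cldn5, Cldn8 and Cldn12) and 0 as higher, beside 72.9% of all tested genes lower and 1.61% higher. Scaled to endothelial markers, Cldn3, Cldn7, Cldn15 and Cldn23 passed as higher and 0 as lower, beside 34.2% of all genes higher and 0.928% lower. With array quality weights Cldn3 and Cldn7 passed as higher and Cldn4 and Cldn5 as lower (8.19% and 37.9% of all genes), and with the replicate number as a block Cldn3 and Cldn23 passed as higher (4.78%, with 23.5% lower). On the endothelial scale Cldn1, Cldn4, Cldn5 and Cldn8 had log2 fold changes of 0.59, 0.13, 0.30 and 0.83, and Cldn7 stood at -0.17 when scaled to epithelial markers. Under trimmed mean scaling and median centring 7 of the 10 epithelial markers rose and 4 of the 12 endothelial markers fell, and under quantile normalization 3 rose and 3 fell.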

How the data were processed

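RNA from mouse colon was taken with oligo(dT) beads and sequenced in paired ends, per the labels' protocols. The authors deposited 1 table with TPM per library and gene, which sums to the same total in every library and keeps no depth, so depth and detection floors are unknown; TPM from few reads is less precise. Per the submitters' processing notes the build was mm10 and the tools named include HISAT2, featureCounts and edgeR, without versions or roles. Which of these tools, and which test, gave the log2 fold change, p-value and false discovery rate in the authors' deposited table is not stated. TPM was put on the log2(TPM + 1) scale, which understates changes of low genes. Genes at 1 TPM or more in 4 or more libraries were fitted with limma 3.58.1 (R 4.3.3; statmod 1.5.0; trend, robust), with group as sole term and Benjamini-Hochberg adjustment over 14217 genes; an adjusted p under 0.05 is a call. The test was also run on simulated data with known changes, and the outcome is not given here. Exact permutation tests ran over 70 assignments of libraries. Trimmed mean factors were computed on TPM by the published formula. Loci are from GENCODE vM21 (GRCm38, the same assembly as mm10). Members and gene lists were chosen with earlier results of these data known. Named beside the members were the 3 genes of smallest p and the most abundant gene of each junction or regulator list (2 and the most abundant for cell markers); others named were chosen after their values were seen. The labels do not say that libraries are separate animals, so p-values reflect only how much these libraries vary, which may be technical.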

Additional observations from a re-analysis of the deposited data

Results flagged for a closer look

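In the DSS group, the Cldn3 value of replicate 1 stood far from the others, at 167 TPM with the next lowest at 233 TPM (the gap was 0.852 of the group's range, above Dixon's 95% critical value for 4 samples). Among 20 groups of 4 libraries tested in this way, about 1 such value is given by chance. Without that library the log2 fold change of Cldn3 was 0.44 (limma adjusted p = 0.0474).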

How the results depend on the processing

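On TPM as deposited 1 member was called higher (limma, adjusted p under 0.05) and 0 lower. Leaving out 1 library at a time gave 0 to 3 members higher and 0 to 3 lower, 0 to 1 sealing claudins higher and 0 to 3 lower, and 0 to 2 pore-forming claudins higher. Members called higher numbered 3 under trimmed mean scaling, 3 under median centring, 4 scaled to endothelial markers (1 of them pore-forming), 2 with array quality weights, and 0 scaled to epithelial markers (0 sealing). Members called lower numbered 5 scaled to epithelial markers (4 sealing) and 2 with array quality weights (2 sealing), whose estimation stopped before it converged. The sign of Cldn12 turned under trimmed mean scaling (0.049), median centring (0.069) and endothelial scaling (0.92), where Cldn1 (0.59), Cldn4 (0.13), Cldn5 (0.30) and Cldn8 (0.83) also turned, as did Cldn7 (-0.17) under epithelial scaling. Between libraries left out, the difference in log2 ratio ran from 1.03 to 3.56 for Cldn2 to Cldn4, from 0.13 to 1.14 for Cldn15 to Cldn3, and from -0.25 to 1.62 for Cldn2 to Cldn3, which was negative without DSS replicate 5 (-0.04) and DSS + GAA replicates 4 (-0.25) and 5 (-0.20). The causes of these shifts were not tested. All genes called higher ranged from 229 (epithelial scaling) to 4862 (endothelial scaling), beside 847, with 1979 under trimmed mean scaling, 2165 under median centring and 1677 under quantile normalization. Those called lower ranged from 132 (endothelial) to 10358 (epithelial), beside 4006, with 1647, 1308 and 1601 under the same 3. Leaving out single libraries gave 361 to 1277 higher and 1676 to 4435 lower. The pseudocounts, filters and variance settings tried left the counts of members called at 1 higher and 0 lower. TPM holds no depth, so the precision of low members such as Cldn1 and Cldn5 cannot be given.

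With the replicate number as a block, 2 members were called higher, Cldn3 (limma adjusted p = 0.0398) and Cldn23 (0.0418), and 0 lower. Deviations of same-numbered libraries correlated at 0.18, -0.11, 0.15 and -0.03 for numbers 1, 2, 4 and 5, and 2 of the 4 numbers matched best with themselves. With only 4 numbers this check cannot tell whether same-numbered libraries were paired. The main fit used no pairing.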
